A study of Mus musculus with 172 samples.

Results

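The genes described here serve the entry of pyruvate into the mitochondrion and the tricarboxylic acid (TCA) cycle. They were chosen by name, with earlier results of these data known, and comprise 33 of the 49671 genes counted. They are the 2 subunits of the mitochondrial pyruvate carrier, 5 genes of the pyruvate dehydrogenase (PDH) complex, its 4 kinases and 2 phosphatases, pyruvate carboxylase, and 19 genes for enzymes of the cycle, which include the cytosolic forms Aco1, Idh1 and Mdh1. Transcripts were measured by Smart-seq2 in 172 single inner cell mass (ICM) cells of 19 mouse blastocysts, with the embryo as the replicate. The groups were E3.5 WT/HET (58 cells from 5 WT and 2 HET embryos), E3.5 MUT (29 cells, 4 embryos), E4.5 EPI (37 cells) and E4.5 PrE (29 cells), both from the same 2 WT and 4 HET embryos, and E4.5 MUT (19 cells, 2 embryos). MUT embryos lack a functional Oct4 gene, which encodes the pluripotency factor OCT4, HET embryos carry a single working copy and WT embryos carry both. All came from intercrosses of heterozygous mice of mixed genetic background. In all groups the trophectoderm (TE) was stripped by immunosurgery and its lysate was used for genotyping. EPI (epiblast) and PrE (primitive endoderm) are names that the authors gave to single cells from their transcriptomes, so the expression differences between them are partly built into the groups, and the E4.5 MUT cells have no such split.

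The mitochondrial pyruvate carrier admits pyruvate made in the cytosol, and the PDH complex converts it to acetyl-CoA. PDH kinases (Pdk1 to Pdk4) phosphorylate the E1 alpha subunit and switch the complex off, and PDH phosphatases (Pdp1, Pdp2) switch it on again. Citrate synthase joins acetyl-CoA to oxaloacetate, and the later steps release carbon dioxide, reduce NAD and ubiquinone and restore oxaloacetate. Preimplantation embryos depend on pyruvate before glucose use rises around the blastocyst stage.

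Pou5f1, the gene for OCT4, ranged from 199 to 435 CPM (a gene's counts relative to all counts of the embryo sum, scaled by TMM) in E3.5 WT/HET embryos and from 2.74 to 5.93 CPM in E3.5 MUT embryos. It ranged from 70.3 to 242 CPM in EPI, from 46.9 to 152 CPM in PrE, and had no count in either E4.5 MUT embryo. Embryo sums held 2736296 to 17453036 assigned counts, and 2 to 11 cells. The 9 EPI markers summed to 2167 to 3742 CPM in EPI and 175 to 354 CPM in PrE, and the 9 PrE markers to 5.76 to 73.9 CPM and 2762 to 5825 CPM. E3.5 and E4.5 libraries were prepared on separate plates, so that stage and plate cannot be told apart. The share of counts in mitochondrially encoded genes also moved with stage, with group medians over cells of 9.45% and 7.66% in E3.5 WT/HET and MUT against 3.83%, 3.22% and 4.65% in EPI, PrE and E4.5 MUT. So did the share of read pairs that aligned to several places, which are not in the gene counts, with medians of 38.8% and 41.1% against 24.9%, 19.7% and 22%. The part of both shares in the stage results was not tested. A summed level falls alike with fewer cells expressing a gene and with less RNA per cell, which embryo sums cannot separate.

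Pdp2 and Sdhb were each called in more than 1 of the comparisons of MUT with control cells, and the sequence before their transcription starts is shown for that reason. Mpc1 was also called in more than 1 of them but is not shown, since its RefSeq start lies 883 bases inside the annotated gene. The RefSeq starts of Pdp2 and Sdhb lie 21 and 68 bases inside, and their sequences are cut at the gene start. RefSeq promoters (build GRCm38.p6) were matched for 30 of the 33 genes by symbol. These 30, used for the counts below, include Mpc1 and other genes whose RefSeq start lies far from the annotated gene start. The distance was 27467 bases for Sucla2, 623 for Mpc2 and 433 for Mdh1. Windows run 5′ to 3′ up to the annotated gene start on the plus strand, chr8:104591222-104591450 for Pdp2 and chr4:140961021-140961202 for Sdhb. Capitals mark matches to ACGTG, a form of the core of the hypoxia response element, on either strand. No other form of that core was searched.
Pdp2: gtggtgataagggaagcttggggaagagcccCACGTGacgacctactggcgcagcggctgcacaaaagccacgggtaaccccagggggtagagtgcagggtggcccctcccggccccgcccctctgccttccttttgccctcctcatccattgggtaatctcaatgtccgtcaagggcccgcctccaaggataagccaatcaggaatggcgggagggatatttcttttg
Sdhb: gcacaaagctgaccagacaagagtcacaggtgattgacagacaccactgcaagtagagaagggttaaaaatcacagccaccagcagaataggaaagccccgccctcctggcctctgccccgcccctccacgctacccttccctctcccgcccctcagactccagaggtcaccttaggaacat
The Pdp2 match is a palindrome and so counts on both strands. Within 250 bases before the start, ACGTG was present in 9 of the 30 promoters (Pdhb, Pdk2, Pdk3, Pdp2, Pcx, Idh3g, Ogdh, Sdha and Mdh1) and in 17.4% of 19780 promoters of all genes. The median GC content was 61.6% in the 30 windows and 54.4% in all, and its part in the share with this CG-containing run was not tested. Searched on both strands in the same windows, the NRF1 palindrome CGCATGCG (1.99% of all promoters), the oestrogen-related receptor element TCAAGGTCA (0.329%), the octamer ATGCAAAT (1.54%) and the STAT palindrome TTCNNNGAA (6.75%) were found in 0 of the 30. A match is a run of letters, not a shown binding site.

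At E3.5, 4 of the 33 genes passed the test between MUT and WT/HET embryos (edgeR quasi-likelihood test, Benjamini-Hochberg adjusted p under 0.05 over 12075 genes), where 6.18% of all genes tested did. The pyruvate carrier subunit Mpc1 and the phosphatase gene Pdp2 were higher in MUT, and the cytosolic aconitase gene Aco1 and the succinate dehydrogenase gene Sdhb were lower. The median log2 difference was -0.28 over the 33 genes and -0.02 over all genes. At E4.5, MUT differed from EPI in 2 of 33 genes (4.92% of all genes tested were called), Pdp2 being higher and Sdhb lower. MUT differed from PrE in 3 of the 31 genes that passed the filter on low counts (3.81% of all genes tested were called), with Mpc1 and the PDH subunit gene Pdha1 higher and the cytosolic isocitrate dehydrogenase gene Idh1 lower. Pdk4 and Pdp1 were too low to be tested there. Both E4.5 comparisons use the same 2 MUT embryos. Their values are given below as embryo 3 and embryo 8, in that order. The median log2 difference of the genes tested was -0.09 against EPI (all genes -0.03) and -0.09 against PrE (all genes 0.05).

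TE genes moved with genotype beside these results. The 12 TE markers summed to 303 to 1002 CPM in E3.5 WT/HET and 1336 to 2184 CPM in E3.5 MUT embryos, with 4 of 10 tested markers higher and none lower. They summed to 147 to 440 CPM in EPI, where Cdx2, Krt7 and Elf5 had no count, to 798 to 1724 CPM in PrE and to 8459 to 9979 CPM in E4.5 MUT. At E4.5, 7 of 11 tested TE markers were higher in MUT than in EPI and 4 of 12 were higher than in PrE, and none was lower in either. At E3.5 the 9 PrE markers also summed higher in MUT (382 to 608 CPM, against 93.3 to 299 CPM in WT/HET), with 2 of 6 tested called higher, and 4 of 8 tested EPI markers were lower. In E4.5 MUT, the PrE markers summed to 518 to 789 CPM and the EPI markers to 500 to 1155 CPM, each between the EPI and PrE ranges. Against EPI, 4 of 9 EPI markers were lower and 2 of 8 tested PrE markers higher. Against PrE, 5 of 9 PrE markers were lower, and of the 9 EPI markers 1 was higher and 2 were lower. The part of these markers in the results on metabolic genes was not tested.

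**Figure D1:**
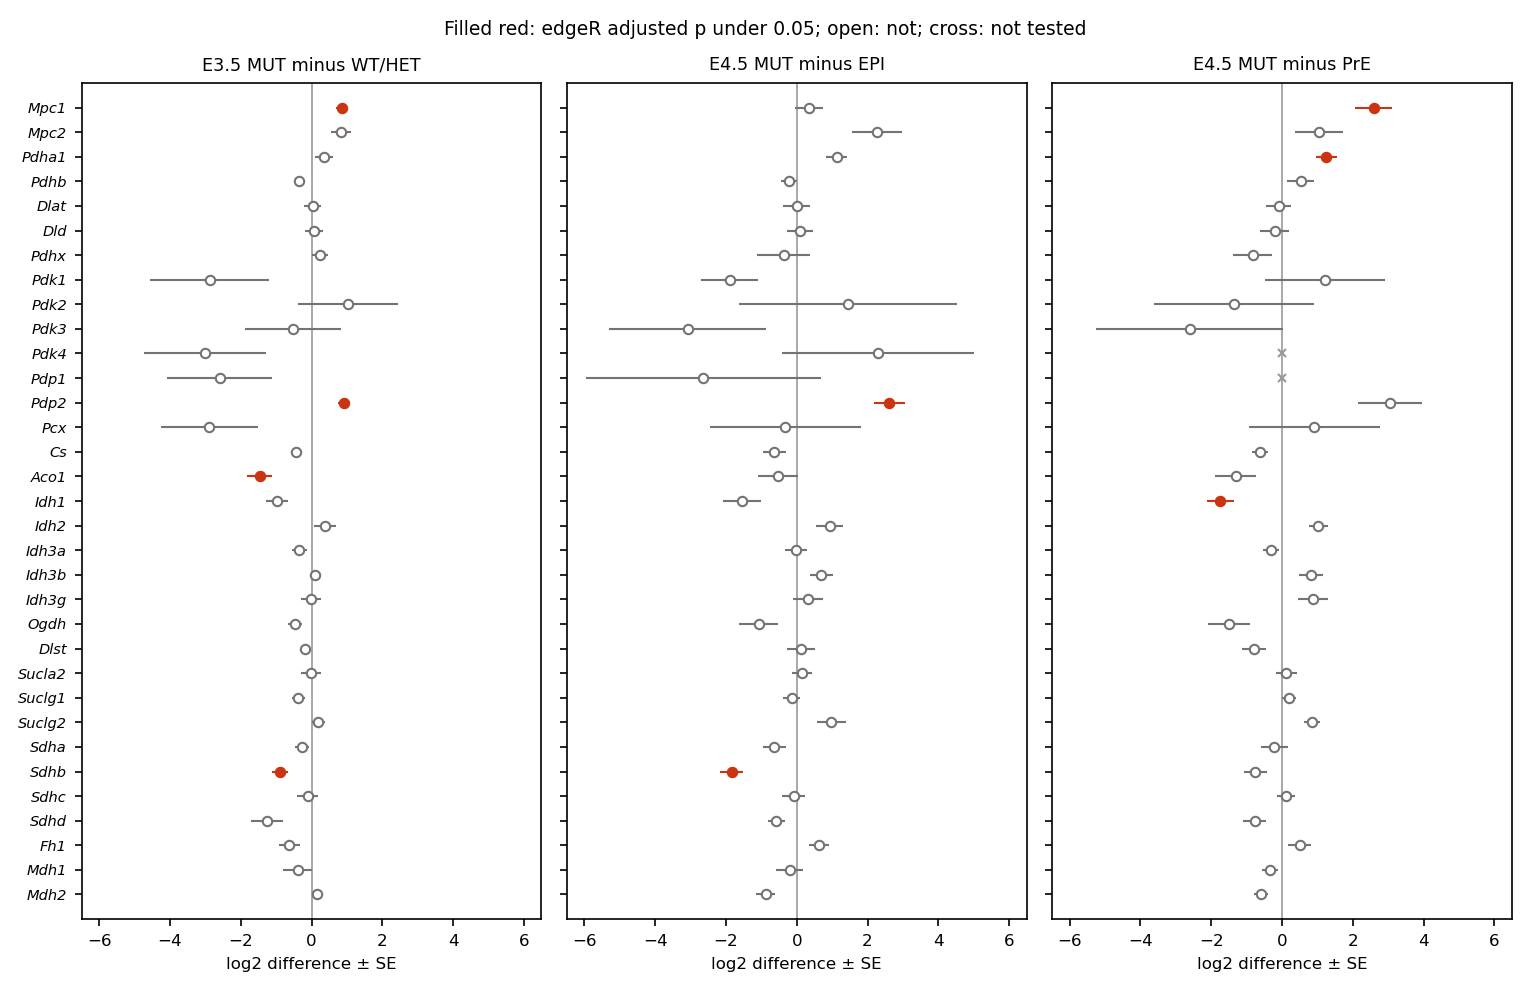
Log2 differences of the 33 genes between MUT and control embryos (points, x axis) with their standard errors (bars) at E3.5 and, at E4.5, against EPI and PrE. Filled red points passed edgeR's test, open points did not, and crosses at 0 mark genes not tested. The carrier genes and Pdp2 lie to the right of 0 in every panel, and Sdhb, Idh1, Aco1 and Cs to the left.

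Mpc1 encodes 1 of the 2 subunits that together form the pyruvate carrier. In E3.5 WT/HET embryos it ranged from 52.6 CPM through a median of 68.5 CPM to 92.3 CPM, and it stood at 115, 123, 142 and 134 CPM in the 4 MUT embryos. Every MUT embryo lay above every control, and the log2 difference was 0.87 (SE 0.17, edgeR adjusted p = 0.0115). The difference passed the test without any single embryo, with log2 differences of 0.79 to 0.94. At E4.5, Mpc1 ranged from 38.1 to 84.8 CPM in EPI (median 56.5 CPM), from 7.33 to 15.5 CPM in PrE (median 13.2 CPM), and was 76.3 and 71.9 CPM in the 2 MUT embryos. MUT lay far above all PrE sums (log2 difference 2.59, SE 0.53, edgeR adjusted p = 0.0270), but inside the EPI range (0.34, SE 0.41, edgeR adjusted p = 0.744). The call against PrE was lost without either MUT embryo, the adjusted p then being 0.239 or 0.188 and the log2 difference 2.60 or 2.64, and without HET embryo 2 (0.0579) or HET embryo 4 (0.0534). The Mpc1 exons overlap an antisense transcript, 4930506C21Rik, over 23.1% of their length, and without strand the reads of that part cannot be told apart.

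Mpc2, the partner subunit, pointed the same way with wider spread. It averaged 85.3 ± 16.1 CPM (SD, n = 7) in E3.5 WT/HET and 149 ± 76.5 CPM (n = 4) in MUT, a log2 difference of 0.83 that did not pass (SE 0.29, edgeR adjusted p = 0.107). At E4.5 it averaged 14.7 ± 9.30 CPM in EPI and 35.2 ± 19.4 CPM in PrE (n = 6 each), and was 54.7 and 90.5 CPM in the MUT embryos. The MUT level was above all 6 EPI sums, but the log2 difference of 2.27 (SE 0.72) had an edgeR adjusted p of 0.101. From E3.5 WT/HET to EPI, Mpc2 fell by 2.49 on the log2 scale (edgeR adjusted p = 0.000273) while Mpc1 changed by -0.30 (0.351). To PrE, Mpc1 fell by 2.54 (edgeR adjusted p = 3.15e-06) and Mpc2 by 1.28 (0.0149). Relative to E3.5, Mpc2 alone was called in EPI and both subunits in PrE. Per kilobase of exon, the log2 ratio of Mpc1 to Mpc2 had a median of 1.55 in E3.5 WT/HET, 4.27 in EPI (range 2.48 to 5.10) and 0.21 in PrE (range -0.50 to 2.69), and was 2.30 and 1.49 in the E4.5 MUT embryos. In EPI against PrE, Mpc1 was higher by 2.21 (SE 0.38, edgeR adjusted p = 0.00161), and Mpc2 differed by -1.26 (SE 0.62, 0.271).

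**Figure D2:**
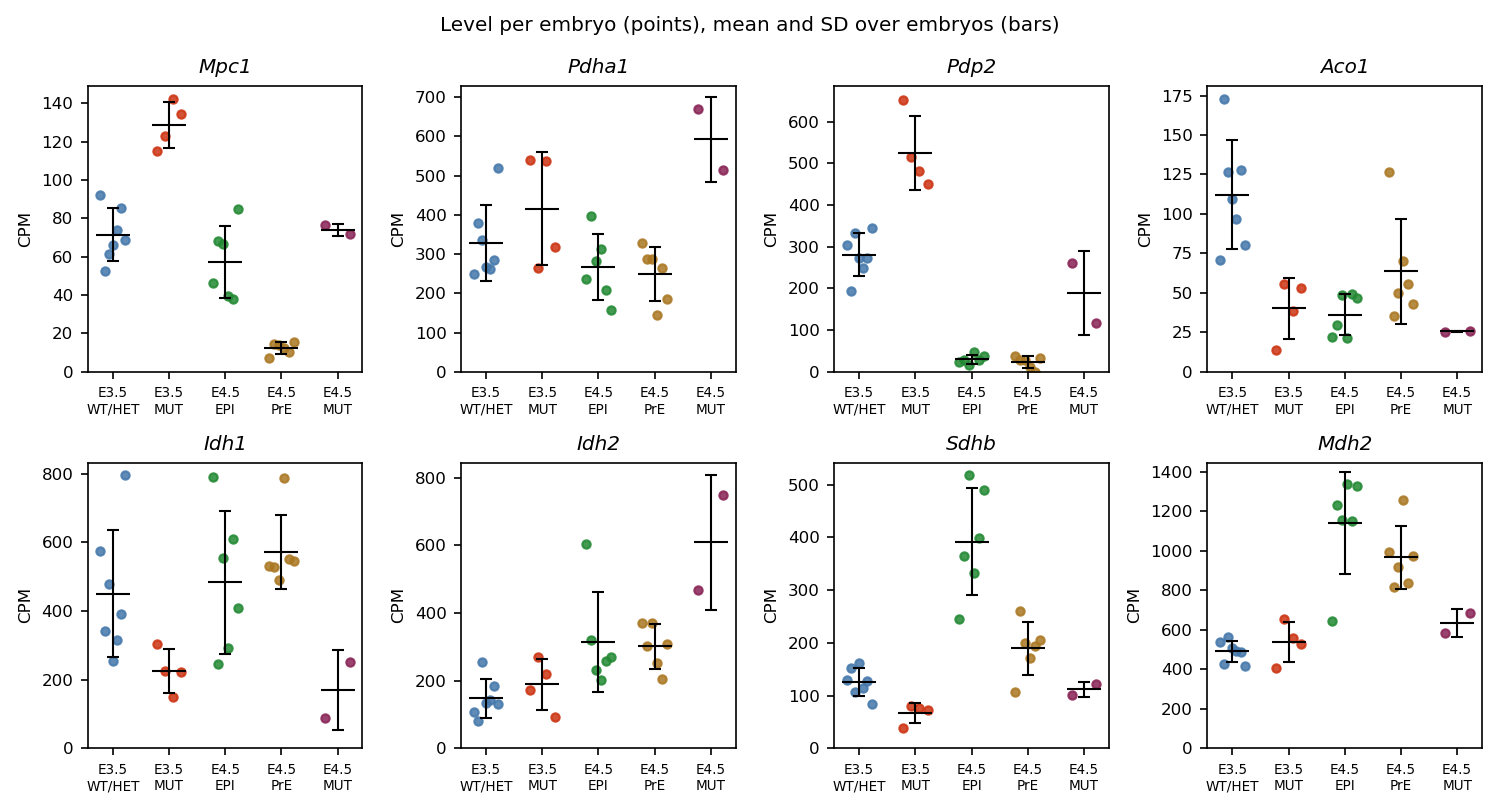
CPM (y axis, from 0) of 8 genes in each embryo (points) by group, with the mean and SD over embryos (bars). Mpc1 and Pdp2 are highest in E3.5 MUT, Sdhb and Mdh2 are lower in E4.5 MUT than in the means of EPI and PrE, and Idh1 and Idh2 stand in opposite order in E4.5 MUT, at means of 170 and 609 CPM, and in EPI, at 484 and 314 CPM.

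The PDH complex is assembled from E1 (Pdha1, Pdhb), E2 (Dlat), E3 (Dld) and the E3-binding protein (Pdhx). Per kilobase of exon, Pdhb was the highest of the 5 in E3.5 WT/HET embryos at 190 ± 21.2 CPM (SD, n = 7). Pdha1 (87.8 ± 25.8) and Dld (77.3 ± 20.5) followed and did not differ beyond their spread, nor did Pdhx (20.2 ± 4.85) and Dlat (17.4 ± 2.75). None of the 5 passed the test between MUT and WT/HET at E3.5, with log2 differences from -0.35 (Pdhb) to 0.36 (Pdha1). The summed level of the 5 genes was 1262 to 1769 CPM in E3.5 WT/HET, 1244 to 1751 CPM in E3.5 MUT, 911 to 1327 CPM in EPI, 729 to 1073 CPM in PrE, and 1307 to 1380 CPM in E4.5 MUT.

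Pdha1, the X-linked gene for the subunit that the kinases phosphorylate, was the member of the complex that differed at E4.5. It was 668 and 515 CPM in the MUT embryos, 157 to 396 CPM in EPI (median 259 CPM) and 145 to 328 CPM in PrE (median 276 CPM). Both MUT embryos exceeded all 12 EPI and PrE sums. The log2 difference was 1.26 against PrE (SE 0.29, edgeR adjusted p = 0.0464) and 1.13 against EPI (SE 0.31, adjusted p = 0.0689, not called). The PrE call was lost when either MUT embryo or any of 4 PrE sums was left out, with adjusted p up to 0.265. At E3.5, the 4 MUT embryos stood at 538, 265, 538 and 318 CPM and overlapped the control range of 249 to 519 CPM. Of its exons 16.1% overlap Map3k15 on the opposite strand. Pdhb was 503 and 543 CPM in E4.5 MUT, inside the EPI range of 449 to 770 CPM and the PrE range of 213 to 574 CPM. Dlat, Dld and Pdhx differed from EPI by log2 values of -0.01, 0.10 and -0.37, with no call.

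With stage, Dld fell in both lineages, from 285 ± 75.7 CPM (SD, n = 7) in E3.5 WT/HET to 103 ± 24.2 CPM in EPI and 131 ± 38 CPM in PrE (n = 6 each). The log2 differences were -1.45 (edgeR adjusted p = 0.000123) and -1.13 (0.00166). Dld also serves the oxoglutarate dehydrogenase complex. Pdhb fell in PrE by 1.01 on the log2 scale (edgeR adjusted p = 0.00232), or by 0.39 and without a call with WT embryos as the only controls (0.105), and differed by -0.28 in EPI (0.127), which was not called. The direct difference of Pdhb between EPI and PrE, 0.71 (SE 0.25), did not pass (edgeR adjusted p = 0.0936).

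The 4 PDH kinases were low at E3.5 and unevenly detected. Pdk1 was at 0.169, 11.6, 6.87, 8.05, 0, 14.7 and 0 CPM in E3.5 WT/HET embryos 9, 11, 13, 14, 15, 16 and 18, and at 1.59, 1.30, 0.256 and 0 CPM in MUT embryos 10, 12, 17 and 19. In E4.5 EPI it rose to 36.5, 173, 173, 46.7, 32 and 106 CPM in embryos 1, 2, 4, 5, 6 and 7. These values were all above those of E3.5, and the difference from E3.5 WT/HET was 4.02 on the log2 scale (SE 1.06, edgeR adjusted p = 0.00918). In PrE of the same embryos, Pdk1 was at 2.91, 0.382, 28.9, 0, 26.1 and 9.88 CPM. Its difference between EPI and PrE, 3.07 (SE 1.06), did not pass (edgeR adjusted p = 0.0926), and no EPI value fell inside the PrE range. The E4.5 MUT embryos had 17.4 and 34.4 CPM, the higher inside the EPI range and the lower below it (log2 difference from EPI -1.89, SE 0.80, edgeR adjusted p = 0.239).

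Pdk2 was the kinase that rose in PrE. It was at 0 to 2.11 CPM in E3.5 WT/HET, 0 to 2.99 CPM in E3.5 MUT, and at 0 in all EPI sums but embryo 6, which had 12.8 CPM. In PrE it was at 1.11, 12.2, 14.7, 53.0, 0 and 12.3 CPM in embryos 1, 2, 4, 5, 6 and 7. The log2 difference of PrE from E3.5 WT/HET was 4.39 (SE 1.42, edgeR adjusted p = 0.0281), and the call was lost without WT embryo 5, which held the highest value (3.46, adjusted p = 0.0781), or without E3.5 WT embryo 9 (4.25, 0.057). Over all settings run, the Pdk2 difference ran from 1.58 with cells weighted equally (limma-trend, adjusted p = 0.00423) to 6.04 with WT embryos as the only controls (0.0727, not called). In E4.5 MUT Pdk2 was at 12 CPM in embryo 3 and at 0 in embryo 8. The direct difference between EPI and PrE, -2.84 (SE 1.94), did not pass (edgeR adjusted p = 0.463).

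Pdk3 was at 0.0843 to 11.1 CPM in E3.5 WT/HET, 0 to 11 CPM in E3.5 MUT, 0 to 64.0 CPM in EPI and 0 to 58.6 CPM in PrE. It was at 0 and 6.61 CPM in E4.5 MUT, and no comparison called it. Pdk4 was at most 6.86 CPM in the control sums, had no count in PrE, and reached 13.5 CPM in E4.5 MUT embryo 3, where all 231 of its counts came from 1 of 19 MUT cells. Per kilobase of exon, the 4 kinases together had a median of 3.65 CPM in E3.5 WT/HET, 1.26 CPM in E3.5 MUT, 25.2 CPM in EPI and 15.1 CPM in PrE, and were at 9.86 and 7.00 CPM in the MUT embryos of E4.5. Of this sum, Pdk1 took 17.9% to 100% in EPI (median 58.3%) and 0% to 51.6% in PrE (median 10.5%). Pdk3 took a median of 55.9% in E3.5 WT/HET, 39.2% in EPI and 48.7% in PrE. These shares rest on few reads at E3.5 and on few cells, and differed widely between embryos of a group.

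**Figure D3:**
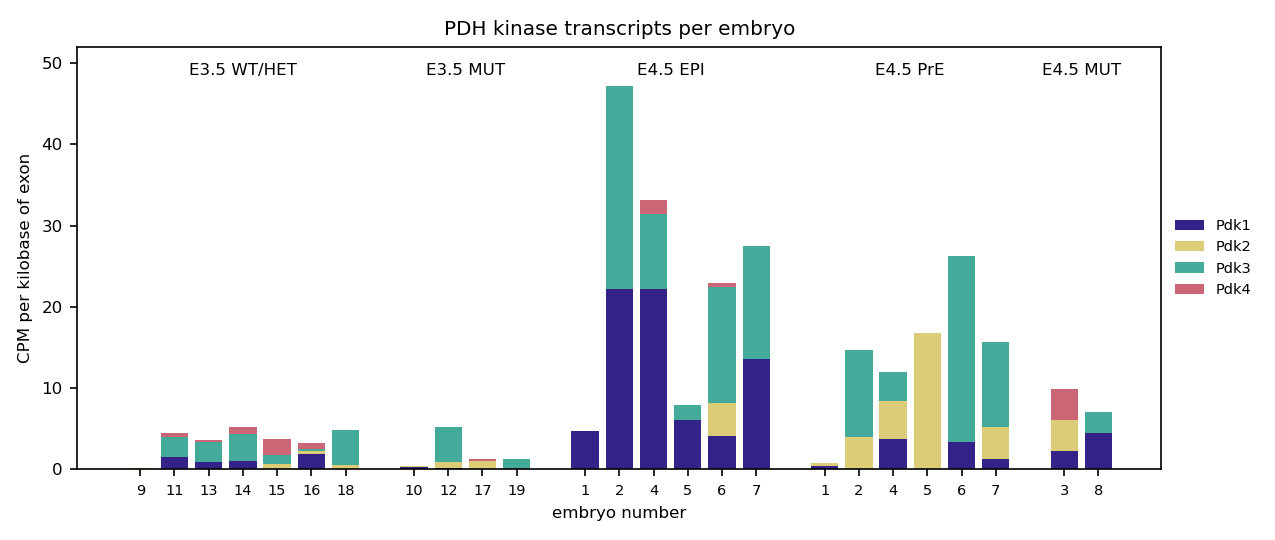
Level of the 4 PDH kinase genes per kilobase of exon (y axis, CPM per kilobase, stacked) in each embryo, by group. The median total is highest in EPI, at 25.2 CPM per kilobase, although PrE exceeds EPI in embryos 5 and 6, and Pdk1 makes a larger part of them there than in PrE in each of the 6 embryos.

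Pdp2, a phosphatase that removes the inhibitory phosphate from PDH, showed the clearest difference with genotype. It ranged from 195 to 345 CPM in E3.5 WT/HET embryos, with a median of 274 CPM, and was 653, 516, 483 and 451 CPM in the MUT embryos. No MUT embryo overlapped the controls, and the log2 difference was 0.92 (SE 0.17, edgeR adjusted p = 0.00780). Without any single embryo, it stayed between 0.80 and 0.98 and passed the test. At E4.5, Pdp2 had dropped to 15.6 to 47.8 CPM in EPI (median 28.2 CPM) and to 0.326 to 37.2 CPM in PrE (median 28.2 CPM), the lowest PrE value resting on 1 count in the sum of 2 cells of embryo 6. From E3.5 WT/HET it fell by 3.19 in EPI and fell by 3.62 in PrE on the log2 scale (edgeR adjusted p = 4.23e-07 and 0.000124). The E4.5 MUT embryos had 260.1 and 118 CPM, above all 12 EPI and PrE sums and below all 4 E3.5 MUT embryos, a change with stage in MUT that was not tested.

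The log2 difference of Pdp2 between MUT and EPI was 2.61 (SE 0.44, edgeR adjusted p = 0.00953), and between MUT and PrE 3.05 (SE 0.91, adjusted p = 0.0943, not called). Without MUT embryo 3, the higher of the MUT pair, the difference from EPI was 1.94 with an adjusted p of 0.200, and with cells weighted equally (limma-trend) it was 2.47 with an adjusted p of 0.0565. The interaction of stage and genotype was tested on sums over all E4.5 cells of an embryo, without the split into lineages. It called 2 of 33 genes (5.46% of all genes tested were called), Pdp2 and Mdh2. For Pdp2 the MUT difference was larger at E4.5 than at E3.5 by 1.74 (SE 0.34, edgeR adjusted p = 0.00486), and without embryo 3 by 1.04 (adjusted p = 0.114). Pdp1, the other phosphatase gene, was at 0 to 8.94 CPM in E3.5 WT/HET, 0 to 1.37 CPM in E3.5 MUT and 0 to 11.5 CPM at E4.5, and was called in no comparison that tested it. Per kilobase of exon, Pdp2 stood at 49.4 ± 9.04 CPM and Pdp1 at 0.835 ± 0.784 CPM in E3.5 WT/HET (SD, n = 7).

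Pyruvate carboxylase (Pcx), which makes oxaloacetate directly from pyruvate, was low throughout. It was at 0 to 4.51 CPM in E3.5 WT/HET, 0 to 0.992 CPM in E3.5 MUT, 0 to 23.3 CPM in EPI, 1.32 to 8.56 CPM in PrE, and 0 and 15.8 CPM in E4.5 MUT. At E3.5 its log2 difference was -2.89 (SE 1.38, edgeR adjusted p = 0.249), and no comparison called it.

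Citrate synthase (Cs), the entry enzyme of the cycle, fell with stage from 374 ± 49.5 CPM (SD, n = 7) in E3.5 WT/HET to 212 ± 60.9 CPM in EPI and 218 ± 26.4 CPM in PrE. Both falls passed, by 0.79 on the log2 scale in each lineage (edgeR adjusted p = 0.00413 for EPI and 0.000158 for PrE). It stood at 272 ± 50.8 CPM (n = 4) in E3.5 MUT, a log2 difference of -0.44 (SE 0.15, edgeR adjusted p = 0.105). In E4.5 MUT it was 151 and 128 CPM, under all 6 PrE sums, with a log2 difference from PrE of -0.63 (SE 0.23, adjusted p = 0.190). The EPI sums, 117 to 288 CPM, overlapped the MUT values (-0.63, SE 0.34, edgeR adjusted p = 0.343).

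Aco1, the cytosolic aconitase that also serves as an iron sensor, ranged from 70.8 to 173 CPM in E3.5 WT/HET with a median of 109 CPM. It was 13.6, 55.8, 38.5 and 52.8 CPM in the MUT embryos, all below the controls. The log2 difference was -1.47 (SE 0.36, edgeR adjusted p = 0.0305), and -2.50 with cells weighted equally (limma-trend, adjusted p = 0.00574). Without MUT embryo 10, which had the lowest Aco1 and a mitochondrial share of 13.1%, it was -1.17 (adjusted p = 0.0386), but leaving out any of 5 other embryos (MUT 17, WT 11, WT 13, WT 14 or HET 16) raised the adjusted p above the threshold, to at most 0.0754. At E4.5, Aco1 had 25.4 and 25.8 CPM in MUT, 21.7 to 49 CPM in EPI (median 38.1 CPM) and 35.6 to 127 CPM in PrE (median 53.0 CPM). MUT lay inside the EPI range and below the PrE range, with a log2 difference from PrE of -1.31 (SE 0.58, adjusted p = 0.302). EPI itself was lower than E3.5 WT/HET by a log2 difference of -1.60 (edgeR adjusted p = 0.000410), and PrE differed by -0.82 (0.0502).

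Idh1 and Idh2 make the NADP-linked isocitrate dehydrogenases of the cytosol and the mitochondrion. Idh1 ranged from 256 to 796 CPM in E3.5 WT/HET (median 391 CPM) and was 303, 224, 150 and 224 CPM in E3.5 MUT. Only MUT embryo 10 reached into the control range, and the log2 difference of -0.98 (SE 0.31) did not pass (edgeR adjusted p = 0.0791). At E4.5 it was 87.8 and 253 CPM in MUT, 245 to 792 CPM in EPI (median 481 CPM) and 492 to 787 CPM in PrE (median 538 CPM). The difference from PrE was -1.74 (SE 0.39, edgeR adjusted p = 0.0412) with no overlap, and that from EPI -1.53 (SE 0.54, adjusted p = 0.143). The difference from PrE was -2.68 without MUT embryo 8 (adjusted p = 0.00726) and -3.36 with cells weighted equally (limma-trend, 0.00339). The PrE call was lost without MUT embryo 3 (-1.11, adjusted p = 0.182) and also without each PrE sum in turn, at an adjusted p of at most 0.0758.

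Idh2 went the other way without passing the test. It averaged 314 ± 147 CPM in EPI and 302 ± 66.2 CPM in PrE (SD, n = 6 each) and was 467 and 750.4 CPM in E4.5 MUT, with log2 differences of 0.93 from EPI (SE 0.38, edgeR adjusted p = 0.219) and 1.02 from PrE (SE 0.27, 0.0707). The ratio of both genes, looked at after their values were seen, was higher in both E4.5 MUT embryos than in every control sum. Per kilobase of exon, the log2 ratio of Idh2 to Idh1 was 2.51 and 1.67 in E4.5 MUT, -1.15 to 0.49 in EPI, -1.54 to -0.30 in PrE, -2.50 to -0.81 in E3.5 WT/HET and -1.16 to 0.66 in E3.5 MUT. With stage, Idh2 rose in EPI (1.10, edgeR adjusted p = 0.00739) and in PrE (1.02, 0.00405), whereas Idh1 was not called (0.11 and 0.33).

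The NAD-linked isocitrate dehydrogenase of the cycle is built from Idh3a, Idh3b and Idh3g. In the E4.5 MUT embryos, Idh3b was 482 and 505 CPM, against 299 ± 111 CPM in EPI and 281 ± 87.3 CPM in PrE (SD, n = 6 each), and no comparison of genotypes called any of the 3 genes. Idh3a stood at 189 ± 30.1 CPM in E3.5 WT/HET, 147 ± 46.3 CPM in E3.5 MUT, 196 ± 59.8 CPM in EPI, 245 ± 34.9 CPM in PrE and 197 ± 13.3 CPM in E4.5 MUT (n = 2). Idh3g stood at 252 ± 99 CPM in E3.5 WT/HET (SD, n = 7) and 445 ± 221 CPM in EPI (n = 6). It rose with stage in EPI by a log2 difference of 0.85 (SE 0.30, edgeR adjusted p = 0.0431), a call that was lost in 8 of 13 fits with an embryo left out. The value was 0.52 without WT embryo 5 (adjusted p = 0.143), 0.77 to 1.05 without any other, and 0.59 with cells weighted equally (limma-trend, 0.211).

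Ogdh and Dlst encode the E1 and E2 parts of oxoglutarate dehydrogenase. Ogdh was 138 ± 8.53 CPM in E3.5 WT/HET (SD, n = 7) and 98.4 ± 28.7 CPM in MUT (n = 4), a log2 difference of -0.47 (SE 0.19, edgeR adjusted p = 0.170). At E4.5 it was 26.1 and 107 CPM in MUT against 137 ± 42.7 CPM in EPI and 188 ± 63.4 CPM in PrE, with log2 differences of -1.08 (SE 0.55, adjusted p = 0.329) and -1.5 (SE 0.59, 0.233). Dlst was lower in EPI than in PrE, at 60.5 ± 14.2 against 116 ± 17.8 CPM, by a log2 difference of -0.93 (SE 0.21, edgeR adjusted p = 0.0114), which became -0.95 with an adjusted p of 0.0505 when embryo entered the fit as a block and -1.57 with an adjusted p of 0.0598 with cells weighted equally (limma-trend). The call was also lost without HET embryo 2 or HET embryo 4, at an adjusted p of at most 0.0575. EPI against PrE called 3 of 31 genes in all (9.81% of all genes tested were called), Mpc1 and Sdhb being higher in EPI and Dlst lower.

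Succinyl-CoA synthetase pairs the alpha subunit of Suclg1 with an ADP-forming (Sucla2) or a GDP-forming (Suclg2) beta subunit. Sucla2 fell with stage, from 442 ± 87.4 CPM (SD, n = 7) in E3.5 WT/HET to 235 ± 58.6 CPM in EPI and 247 ± 64.0 CPM in PrE, with log2 differences of -0.88 and -0.85 (edgeR adjusted p = 0.00140 and 0.00162). Suclg1 rose in EPI, from 256 ± 22.2 to 373 ± 76.9 CPM (log2 difference 0.57, SE 0.14, edgeR adjusted p = 0.00508), and stood at 300.4 ± 26.8 CPM in PrE. Suclg2 rose in PrE (0.57, edgeR adjusted p = 0.0109) and was 0.43 higher in EPI without a call (0.207). In E4.5 MUT, Suclg2 was 259 and 381 CPM, above all 6 PrE sums (158 to 204 CPM), with a log2 difference of 0.85 (SE 0.22, edgeR adjusted p = 0.0690). The EPI sums, 85.6 to 299 CPM, overlapped the MUT values (0.98, SE 0.40, edgeR adjusted p = 0.216). Per kilobase of exon, the log2 ratio of Suclg2 to Sucla2 had a median of -1.99 in E3.5 WT/HET, -1.02 in EPI and -0.55 in PrE, and was -0.02 and 0.10 in E4.5 MUT.

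Succinate dehydrogenase joins the cycle to the respiratory chain, with the flavoprotein Sdha, the iron-sulfur protein Sdhb and the membrane anchors Sdhc and Sdhd. Sdhb ranged from 84.6 through a median of 127 to 163 CPM in E3.5 WT/HET and was 38.2, 80.3, 75.8 and 73.1 CPM in the MUT embryos. Groups did not overlap, though the lowest control lay close to the MUT values, and the log2 difference was -0.89 (SE 0.23, edgeR adjusted p = 0.0394), and -1.43 with cells weighted equally (limma-trend, adjusted p = 0.0165). The Sdhb call was lost in 9 of 11 fits with an embryo left out, among them that without MUT embryo 10 (-0.69, adjusted p = 0.0811), and lay between -0.97 and -0.69 in all of them. At E4.5 Sdhb was 246 to 518 CPM in EPI (median 382 CPM), 107 to 260.0 CPM in PrE (median 197 CPM), and 101 and 122 CPM in MUT. MUT lay below every EPI sum, with a log2 difference of -1.84 (SE 0.32, edgeR adjusted p = 0.0116), but overlapped PrE (-0.75, SE 0.33, adjusted p = 0.294). The EPI call was lost without either MUT embryo, at -1.70 (adjusted p = 0.115) and -1.97 (0.0669). EPI exceeded PrE by 1.05 (SE 0.22, edgeR adjusted p = 0.00699).

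Sdhb rose with stage in EPI by 1.67 (edgeR adjusted p = 1.17e-05) and in PrE by 0.59 (0.0297). The PrE call was lost without HET embryo 16, WT embryo 9, HET embryo 2 or HET embryo 7, at an adjusted p of at most 0.0772. The E4.5 MUT values were within the range of E3.5 WT/HET embryos and below every EPI value, a set of levels given side by side and not tested across stages. Sdhd behaved less evenly. It was 133 ± 49.4 CPM in E3.5 WT/HET (SD, n = 7) and 54.5 ± 43.6 CPM in MUT (n = 4, down to 14.6 CPM), with a log2 difference of -1.27 (SE 0.45, edgeR adjusted p = 0.117). In E4.5 MUT it was 198 and 161 CPM against 263 ± 39.8 CPM in EPI and 310 ± 81.3 CPM in PrE (log2 differences -0.58 and -0.78, adjusted p = 0.213 and 0.282). Sdha and Sdhc showed no call with genotype. Sdha was 172 and 330.4 CPM in E4.5 MUT against 384 ± 88.5 CPM in EPI and 293 ± 94.3 CPM in PrE, and Sdhc was at 201 and 157 CPM in E4.5 MUT, within the EPI range of 115 to 282 CPM. The 4 genes summed to 471 to 759 CPM in E3.5 WT/HET, 287 to 544 CPM in E3.5 MUT, 1024 to 1366 CPM in EPI, 677 to 1212 CPM in PrE, and 672 to 771 CPM in E4.5 MUT.

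Fumarase (Fh1) and the malate dehydrogenases of the cytosol (Mdh1) and mitochondrion (Mdh2) close the cycle, and Mdh1 and Mdh2 also carry the malate-aspartate shuttle. Mdh2 was 417 to 562 CPM in E3.5 WT/HET (median 494 CPM) and 406, 653, 560 and 529 CPM in E3.5 MUT, which overlapped (log2 difference 0.15, SE 0.14, edgeR adjusted p = 0.601). In controls at E4.5 it was 643 to 1335 CPM in EPI (median 1192 CPM) and 818 to 1254 CPM in PrE (median 944 CPM). The MUT embryos had 584 and 684 CPM. The difference from EPI was -0.88 (SE 0.27, adjusted p = 0.0953) and from PrE -0.60 (SE 0.21, 0.156), neither called alone, and MUT lay below all PrE sums and all EPI sums but that of embryo 1, which lay between them. The change of the MUT difference from E3.5 to E4.5 passed the interaction test, at -0.97 (SE 0.23, edgeR adjusted p = 0.0194), and was -0.86 without MUT embryo 3 (adjusted p = 0.126) and -0.82 with cells weighted equally (limma-trend, adjusted p = 0.103).

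Fh1 was 104 ± 18.8 CPM in E3.5 WT/HET and 66.4 ± 33.6 CPM in MUT (log2 difference -0.63, SE 0.30, edgeR adjusted p = 0.254), and at E4.5 it was 229 and 202 CPM in MUT against 137 ± 31.1 CPM in EPI (0.63, SE 0.27, 0.245). The PrE sums, 119 to 248 CPM, overlapped the MUT values (0.5, SE 0.32, edgeR adjusted p = 0.49). The interaction for Fh1 was 1.15 (SE 0.45, edgeR adjusted p = 0.154). Mdh1 was even over the controls at E3.5, at 91.0 ± 4.99 CPM (SD, n = 7), and spread from 10.9 to 102 CPM in MUT, the lowest value being that of embryo 10. In E4.5 MUT it was 192 and 236 CPM, within the EPI range of 130 to 406 CPM. Wdpcp overlaps 2% of its exons on the opposite strand.

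Stage gave the largest number of calls. From E3.5 WT/HET to EPI, 17 of 32 genes passed the test (31.9% of all genes tested did), 10 higher in EPI (15.5% of all genes) and 7 lower (16.4%). Pdk1, Idh2, Idh3g, Suclg1, all 4 succinate dehydrogenase genes, Mdh1 and Mdh2 were higher. Mpc2, Dld, Pdp2, Cs, Aco1, Dlst and Sucla2 were lower. Pdk2 was not tested. From E3.5 WT/HET to PrE, 16 of 31 genes passed (31.7% of all genes tested did), 9 higher (14.8%) and 7 lower (16.9%). Pdk2, Idh2, Suclg2, Sdhb, Sdhc, Sdhd, Fh1, Mdh1 and Mdh2 were higher, the Fh1 call being lost in 7 of 13 fits with an embryo left out (adjusted p up to 0.108) and its value falling from 0.56 to 0.10 with WT embryos as the only controls (0.781), and Mpc1, Mpc2, Pdhb, Dld, Pdp2, Cs and Sucla2 were lower. Both comparisons share the 7 E3.5 embryos and the 6 E4.5 embryos. With WT embryos as the only controls, which leaves 2 at E4.5, 14 of the 17 EPI calls and 6 of the 16 PrE calls were still made. Those lost were Pdk1, Cs and Idh2 in EPI, and Mpc2, Pdhb, Dld, Pdk2, Idh2, Sucla2, Suclg2, Sdhb, Sdhd and Fh1 in PrE, where Mpc2 moved to -0.79 (edgeR adjusted p = 0.136), Sucla2 to -0.47 (0.189), Idh2 to 0.67 (0.248) and Sdhd to 0.81 (0.186).

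By step, the calls of the carrier and PDH complex were all lower at E4.5, 2 of 7 genes in EPI and 4 of 7 in PrE, where 16.4% and 16.9% of all genes were lower. The calls from succinate to oxaloacetate were all higher, 6 of 7 genes in EPI and 6 of 7 in PrE, where 15.5% and 14.8% of all genes were higher. With WT embryos as the only controls, the PrE calls were 1 of these 4 (Mpc1) and 3 of these 6 (Sdhc, Mdh1 and Mdh2), and in EPI all of both were still made. No test compared these steps. Mdh1 rose by 1.44 in EPI (SE 0.21, edgeR adjusted p = 0.000106) and by 1.58 in PrE (SE 0.11, 1.41e-07), and Sdhc by 1.5 (edgeR adjusted p = 0.000261) and 1.31 (0.000279). The steps between Cs and succinyl-CoA had calls in both directions. The median over the genes tested was 0.09 in EPI and 0.33 in PrE, where the medians of all genes were -0.06 and -0.10. Stage and plate cannot be told apart in any of these differences. Of the 13 genes encoded by mitochondrial DNA, 11 were tested and 8 were lower at E4.5 in each lineage, mt-Co1 by 1.32 in EPI (SE 0.14, edgeR adjusted p = 7.46e-06) on the log2 scale.

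**Figure D4:**
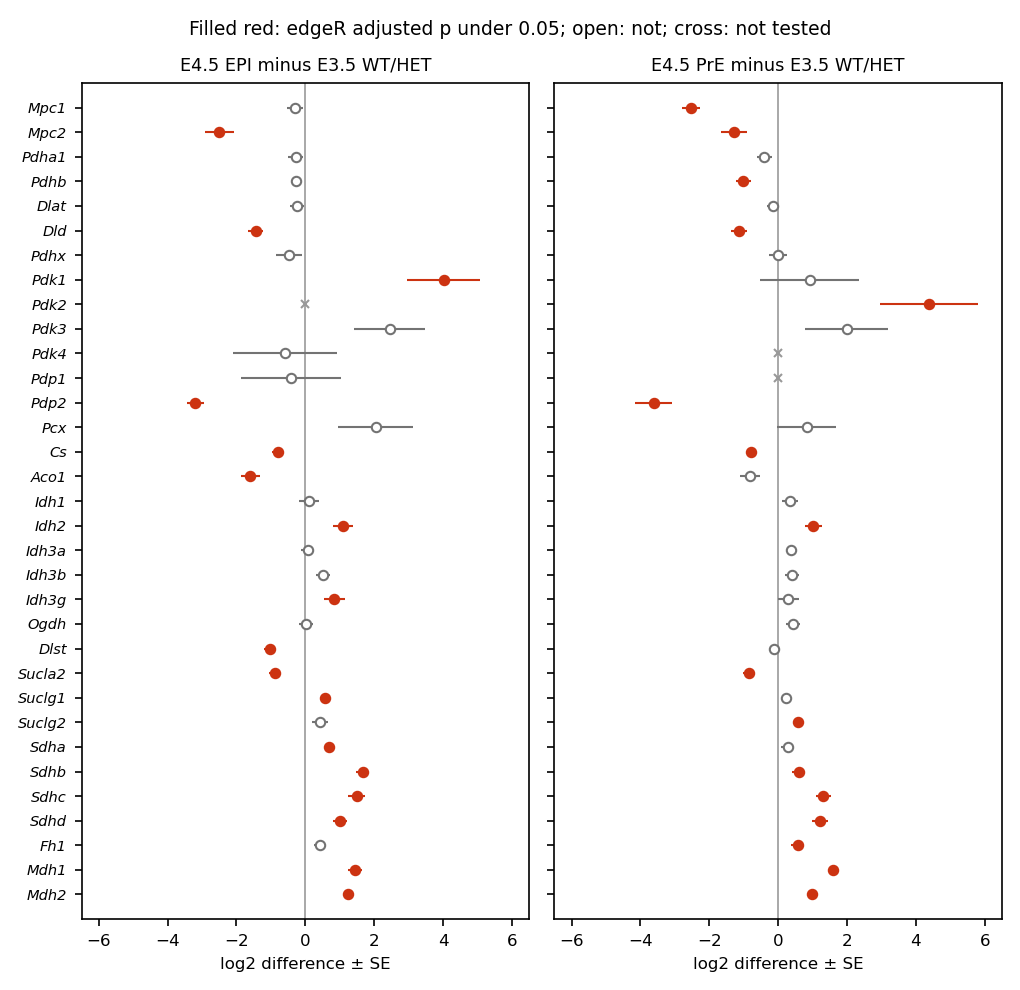
Log2 differences (x axis, with standard errors) of the 33 genes from E3.5 WT/HET embryos to EPI and to PrE at E4.5. Filled red points passed edgeR's test, 17 in EPI and 16 in PrE, open points did not, and crosses at 0 mark genes not tested. Called carrier and PDH complex genes lie left of 0 and called genes of the succinate-to-oxaloacetate steps right of it.

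Shares of cells with at least 1 count separated genes present in nearly every cell from genes caught in few. In E3.5 WT/HET, 27 of the 33 genes were found in over 90% of cells, in E3.5 MUT 25, in EPI 20, in PrE 21 and in E4.5 MUT 12. The median number of genes detected per cell moved with these counts, at 9398, 8890, 6965, 7169 and 6514 in the same order of groups, and its part in them was not tested. The 4 kinases, Pdp1 and Pcx made up the 6 genes found in under 50% of cells at E3.5. Pdk1 had a count in 73.0% of EPI cells, 27.6% of PrE cells, 47.4% of E4.5 MUT cells, 27.6% of E3.5 WT/HET cells and 10.3% of E3.5 MUT cells (3 of 29, exact Clopper-Pearson 95% interval 2.19% to 27.4%, for counting error only). Pdk2 had a count in 51.7% of PrE cells and 5.41% of EPI cells. Pdk4 had none in 29 PrE cells, which allows a share of up to 10.3% by a limit of 3 cells, or 11.9% by the exact interval, both for counting error only. The cells of a group come from few embryos.

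The share of cells with a count was lower in E4.5 MUT than in both control lineages for 16 of the 33 genes (48.5%) and higher than in both for 3 (9.09%). Of 13665 genes found in at least 5% of these cells, 47.7% were lower and 21.2% higher in the same way, so that the share of lower genes was near that of all genes. Pdhx, Aco1 and Ogdh, picked after the values were seen, had the widest gaps to PrE. Pdhx had a count in 9 of 19 MUT cells (47.4%; 6 of 11 in embryo 3 and 3 of 8 in embryo 8), against 75.7% of EPI and 93.1% of PrE cells. Aco1 had one in 42.1% (4 of 11 and 4 of 8), against 64.9% and 86.2%. Ogdh had one in 57.9% (4 of 11 and 7 of 8), against 91.9% and 100%. As means over embryos, the MUT shares minus those of PrE were -47.3 points for Pdhx, -44.4 for Aco1 and -38.1 for Ogdh. Without MUT embryo 3 they were -55.8, -37.6 and -12.5 points, and without MUT embryo 8 -38.8, -51.3 and -63.6 points, so that the Ogdh gap rested largely on embryo 3. Dlst, at 57.9% of MUT cells, was found in 3 of 11 cells of embryo 3 and in 8 of 8 of embryo 8. Each of the first 3 differences gave p = 0.0357 in an exact two-sided permutation test over embryos, the smallest that 2 against 6 embryos allow, and an adjusted p of 0.30 over 13535 genes, so none passed. Median depth was 1609943 counts per MUT cell against 1681933 in EPI and 1772045 in PrE, and the differences were -46.5, -44.4 and -38.1 points with cells thinned to 832934 counts. At E3.5 the share of cells with Pdk1 differed by -18.5 points between MUT and WT/HET as means over embryos (p = 0.303, two-sided, from exact permutation of embryos).

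**Figure D5:**
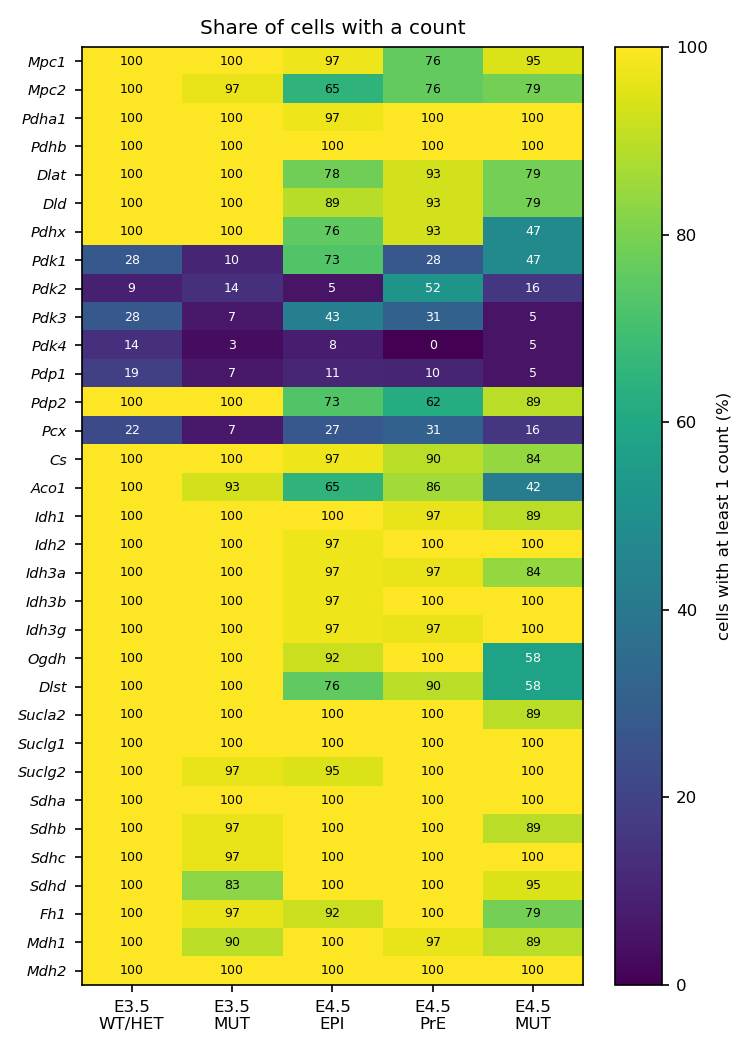
Share of cells with at least 1 count (colour and number, percent) for each of the 33 genes (rows) in the 5 groups (columns). Most genes are found in nearly all cells at E3.5, the kinases, Pdp1 and Pcx in few, and Pdhx and Aco1 have their lowest shares in E4.5 MUT, at 47.4% and 42.1%.

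Around the pathway, 52 genes of lactate and malic enzyme metabolism, citrate export, the malate-aspartate shuttle, glutamine entry, lipoate synthesis, succinate dehydrogenase assembly, paralogues and transcriptional regulators were read from the same fits. At E3.5, 5 of 44 tested differed between MUT and WT/HET (6.18% of all genes). Glud1, which turns glutamate into oxoglutarate, was lower (-1.53, SE 0.33, edgeR adjusted p = 0.0174). Acly, which splits exported citrate, was lower (-0.66, SE 0.15, edgeR adjusted p = 0.0252), as was Myc (-2.93, SE 0.70, 0.0272). Lias, which makes the lipoate that the E2 subunits carry, was higher (1.04, SE 0.25, edgeR adjusted p = 0.0267).

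At E4.5, 5 of 47 of these genes differed between MUT and EPI (4.92% of all genes) and 7 of 47 between MUT and PrE (3.81%). Ldha, which makes lactate from pyruvate, was 32.9 and 65.8 CPM in MUT, 324 to 1814 CPM in EPI and 695 to 2562 CPM in PrE. It was lower by 4.41 against EPI and by 5.01 against PrE on the log2 scale (edgeR adjusted p = 0.00693 and 0.00134), and at E3.5 it was at most 21.2 CPM. Slc25a1, the citrate exporter, was also lower in MUT than in both (-2.68 and -2.96, edgeR adjusted p = 0.00874 and 0.00779), as was the glutamine transporter gene Slc1a5 (-2.28 and -2.99, 0.0132 and 0.00267). Me1, the cytosolic malic enzyme that makes pyruvate from malate, was higher in MUT than in EPI (3.49, SE 0.47, edgeR adjusted p = 0.00299), with 287 and 333 CPM against 10.6 to 42.9 CPM, and not called against PrE (0.78, adjusted p = 0.438). Against PrE, Oat (-3.72), Psat1 (-1.94) and the hypoxia regulator gene Hif1a (-1.73) were lower too (edgeR adjusted p = 0.00134, 0.00739 and 0.0135). Esrrb was lower against EPI (-2.60, SE 0.64, edgeR adjusted p = 0.0479).

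With stage, 19 of 45 of the surrounding genes were called in EPI (31.9% of all genes) and 17 of 44 in PrE (31.7%). Of the EPI calls, 12 were higher and 7 lower (15.5% and 16.4% of all genes). Of the PrE calls, 11 were higher and 6 lower (14.8% and 16.9%). Me1 was lower in EPI than in E3.5 WT/HET (-3.11, SE 0.35, edgeR adjusted p = 1.13e-05). Ldha rose by 7.11 in EPI and 7.71 in PrE (edgeR adjusted p = 6.66e-07 and 1.22e-07), and Slc25a11, the oxoglutarate carrier of the malate-aspartate shuttle, by 1.04 and 1.51 (0.00218 and 0.000149). Gabpa, a regulator of nuclear genes for mitochondria, was lower in both lineages (-1.63 and -1.73, edgeR adjusted p = 0.000158 and 0.000329). Between EPI and PrE, 5 of 41 were called (9.81% of all genes), among them Oat and Me1, both lower in EPI (-5.57 and -2.75, edgeR adjusted p = 1.29e-06 and 0.000729). The interaction called 3 of 48 (5.46% of all genes), Me1 (2.30, SE 0.53, edgeR adjusted p = 0.0152), Psat1 (-2.21, SE 0.39, 0.00225) and Myc (4.38, SE 0.89, 0.00676).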

How the data were processed

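Raw counts per gene and cell were used as the authors deposited them. Per the labels and the study's methods, the authors made them with STAR and HTSeq on mm10 without normalization, and the strand setting is not given in the sources used here. The gene counts do not include ambiguous (8.65%) and multi-aligned (32.3%) read pairs. Embryo numbers came from the study's sample list, matched by title. The 33 genes and the surrounding lists were chosen with earlier results of these data known.

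Sums over cells, 1 per embryo and lineage, were filtered with filterByExpr, TMM-scaled and tested with edgeR 4.0.16 (limma 3.58.1, R 4.3.3) over all genes, with a threshold of 0.05 on the Benjamini-Hochberg adjusted p. No batch term was used, and WT and HET embryos were pooled as controls with no term between them. CPM came from 1 TMM scaling over 25 embryo sums, and per-kilobase values use the exon length of GENCODE vM21. The depth of 2736296 to 17453036 counts per sum sets the counting precision. Shares of cells were tested by exact permutation over embryos (scipy 1.17.1). Genes named outside the 33 were up to 3 per list and comparison with the smallest adjusted p. A gene that this rule would name is not reported here. EPI and PrE sums of an embryo are paired by animal, and a fit with embryo as a block was run as an alternative. Across genes within each embryo, their deviations from the lineage means correlated at 0.0188 to 0.0775. Such a correlation does not measure how both sums of a given gene vary together over embryos. DESeq2 1.42.0, other filters, cell weighting, WT controls alone and leaving out each embryo were the other alternatives. The fits were tested on simulated data, and no result given here rests on that test.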

Additional observations from a re-analysis of the deposited data

Results flagged for a closer look

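Of the 43 groups of embryos with values in which the extreme embryo was compared with the rest, 8 held an embryo far from the others by Dixon's test, which chance gives in about 1 in 20 groups. Most were sparsely detected kinases. Where the other embryos of a group were all at 0, as for Pdk2 in EPI and Pdk4 in E3.5 MUT, the test is met by construction and that rate does not apply. Pdk2 was at 12.8 CPM in EPI of embryo 6, the others being at 0, and at 53.0 CPM in PrE of embryo 5. Pdk4 was at 6.86 CPM in E3.5 WT/HET embryo 15, at 0.940 CPM in E3.5 MUT embryo 17, where the other MUT embryos had none, and at 6.14 CPM in EPI of embryo 4. Among abundant genes, Idh1 was at 787 CPM in PrE of embryo 5, Sdhb at 38.2 CPM in E3.5 MUT embryo 10, and Mdh2 at 643 CPM in EPI of embryo 1, which was the smallest EPI sum with 3 cells.

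In the interaction test of edgeR, the difference between MUT and control embryos changed from E3.5 to E4.5 by 1.74 on the log2 scale for Pdp2 (adjusted p = 0.00486) and by -0.97 for Mdh2 (adjusted p = 0.0194). Both calls were lost without MUT embryo 3, when the values were 1.04 (adjusted p = 0.114) and -0.86 (adjusted p = 0.126).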

How the results depend on the processing

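None of the called differences of the 33 genes changed its sign under the alternatives run. Differences that were not called, the surrounding genes and the markers were not followed. With DESeq2, 7 genes were called at E3.5 between MUT and WT/HET, 6 at E4.5 against EPI and 7 against PrE, and with cells weighted equally (limma-trend) 7, 4 and 6, with 5 for EPI against PrE. That weighting took the calls of Pdp2 against EPI (adjusted p = 0.0565), Dlst in EPI against PrE (0.0598, at a larger difference of -1.57), the Mdh2 interaction (0.103), Idh3g in EPI with stage (0.211) and Fh1 in PrE with stage (0.405). Without a filter on low counts, the calls of Sdhb at E3.5 (0.0657) and of Sdhb (0.0562) and Fh1 (0.0692) in PrE with stage were lost. A mean of 10 CPM or more gave 5 calls against PrE. With WT embryos as the only controls, which leaves 2 embryos at E4.5, there were 2 calls at E3.5, 0 against EPI, 0 against PrE, 0 for EPI against PrE, 7 for PrE against E3.5 and 1 for the interaction. Some values also moved, Fh1 in PrE with stage from 0.56 to 0.10 and Pdp2 there from -3.62 to -5.59. Dropping the HET embryos lowers the number of controls and also changes their genotypes, with HET embryos a larger part of the controls at E4.5 than at E3.5. The part of each was not tested. With stage, weighting cells equally gave larger falls of Aco1 (-3.00) and Dlst (-2.22) in EPI and of Mpc2 (-2.44) and Cs (-1.52) in PrE, and WT controls alone gave 0.70 for Idh2 in EPI (adjusted p = 0.216) and -5.59 for Pdp2 in PrE. Leaving out each MUT embryo from the cell shares was added after seeing the data. The paired fit with embryo as replicate block, for EPI and PrE of the same 6 embryos, called 2 genes where the fit without it called 3, and changed no other call. Leaving out each embryo in turn gave 2 to 5 calls at E3.5, 0 to 5 against EPI, 0 to 3 against PrE, 2 to 4 for EPI against PrE, 16 to 18 and 14 to 18 with stage in EPI and PrE, and 1 to 3 for the interaction, the lowest counts against EPI and for the interaction coming without MUT embryo 3, and against PrE without MUT embryo 3, HET embryo 2 or HET embryo 4. Without 1 MUT embryo at E4.5, the other is assumed to vary like the controls. Counts above include genes near the threshold. With 2 E4.5 MUT embryos, sums of 2 cells in places, and kinases at few counts in many sums, absence of a call does not show equal levels.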
